A study of Mus musculus with 6 samples.

Results

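Genes that copy DNA and genes that divide the cell were followed in the dorsal pancreas of knockout and control mouse embryos. The set was a list of 57 known cell cycle genes, taken by symbol, of which 56 were among the 14681 genes of the authors' deposited table; Orc1 is not analysed here. By their known roles, 34 were assigned to S phase (origin licensing and helicase, polymerases and fork, nucleotide supply, chromatin copying and G1/S control) and 23 to G2 and M phase. Symbol and Entrez identifier matched the RefSeq annotation for 56 members. The knockout group held 3 samples and the control group 3 samples, all from C57BL/6 embryos at embryonic day 18.5. The extraction protocol calls the knockout embryos Dpy30∆P, and the series title speaks of the pancreas. Dpy30 is a core subunit of the complexes that methylate lysine 4 of histone H3. The labels give neither the driver of the deletion nor the genotype of the controls, and the table's own name refers to Pdx1, a gene of pancreas progenitors.

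The table gives, for each gene, one mean of normalized counts over all libraries and one comparison, so values of single embryos, the spread within a group and the depth of each library are unknown. Neither the table nor the labels name the numerator of the fold changes. A positive value is read below as higher in knockout, as is customary for a mutant; were control the numerator, all directions given here would be reversed. Dpy30 itself, with a mean normalized count of 29.4 and a reconstructed log2 fold change of 0.49 ± 1.64 (SE; 95% interval -2.73 to 3.71), did not settle this. The protocol counts 3 embryos of each kind but says nothing of litters, so the p-values rest on the spread among these embryos alone.

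Before a cell divides, origins are licensed by loading the Mcm2 to Mcm7 helicase, which the kinase signals of S phase then fire; polymerases, a sliding clamp and enzymes that make deoxynucleotides carry out the copying. Many of these genes are switched on by E2F factors at the end of G1. Genes of G2 and M phase, which build the spindle, the kinetochore and the checkpoint, are switched on later, through a promoter element called the cell cycle genes homology region (CHR) that binds the DREAM and MuvB complexes, often beside CCAAT boxes that bind NF-Y. Late in gestation both acinar cells and pancreatic mesenchyme still divide, and in bulk tissue a smaller number of dividing cells and less RNA per cell cannot be told apart.

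The promoters of the list carried these elements in separate patterns. In windows of 250 bases before to 50 bases after the RefSeq start (GRCm38.p6), 47 of the 57 genes had an entry. Both strands were searched. The words taken for E2F were TTCCCGC together with its variant forms TTCGCGC, then the form TTGCCGC and the form with a double G, TTGGCGC. The words taken for CHR were TTTGAA as the canonical form and TTTAAA as its variant. The word taken for NF-Y was CCAAT. E2F and CCAAT words can share bases. An E2F word was present in 17 of 28 S phase genes (60.7%) and in 3 of 19 G2 and M phase genes (15.8%), against 17.7% of the 11547 genes of the deposited table with an entry. A CHR word was present in 8 S phase genes (28.6%) and in 17 G2 and M phase genes (89.5%), against 23.8% of table genes. CCAAT was found in 60.7% of S phase genes and 84.2% of G2 and M phase genes, against 42.2% of table genes. A CHR word together with CCAAT stood in 15 of the 19 G2 and M phase genes, in 5 of the 28 S phase genes and in 11.1% of table genes. These are matches of letters in a window, described without a test, and they say nothing of binding. The 250 bases before the start are shown for the usual proliferation markers, for the members with the smallest p, and for Mcm6, whose stretch holds 4 E2F words; capitals mark the words listed above.
Mcm5 (chr8:75109259-75109508, strand plus): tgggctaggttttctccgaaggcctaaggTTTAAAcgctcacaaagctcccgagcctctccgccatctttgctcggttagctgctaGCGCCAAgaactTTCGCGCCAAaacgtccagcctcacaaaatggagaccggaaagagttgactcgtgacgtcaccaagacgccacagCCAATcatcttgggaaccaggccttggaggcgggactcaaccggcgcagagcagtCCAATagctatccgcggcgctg
Mcm6 (chr1:128359706-128359955, strand minus): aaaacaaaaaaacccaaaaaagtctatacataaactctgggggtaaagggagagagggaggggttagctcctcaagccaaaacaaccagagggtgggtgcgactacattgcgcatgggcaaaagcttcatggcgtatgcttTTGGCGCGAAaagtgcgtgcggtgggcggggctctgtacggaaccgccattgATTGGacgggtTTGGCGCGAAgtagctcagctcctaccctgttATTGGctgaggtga
Pcna (chr2:132253181-132253430, strand minus): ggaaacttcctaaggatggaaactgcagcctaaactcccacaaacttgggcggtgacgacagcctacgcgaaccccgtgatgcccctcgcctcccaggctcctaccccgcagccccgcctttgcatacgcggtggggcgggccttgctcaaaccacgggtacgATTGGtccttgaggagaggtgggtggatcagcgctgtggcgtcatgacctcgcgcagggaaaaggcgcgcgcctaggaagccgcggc
Ccnb1 (chr13:100786487-100786736, strand minus): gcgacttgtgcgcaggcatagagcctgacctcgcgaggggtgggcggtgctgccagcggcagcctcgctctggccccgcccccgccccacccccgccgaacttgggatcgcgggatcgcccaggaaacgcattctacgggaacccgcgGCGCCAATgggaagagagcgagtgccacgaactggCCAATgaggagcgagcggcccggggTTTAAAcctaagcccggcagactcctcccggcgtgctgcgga
Cdk1 (chr10:69352913-69353162, strand minus): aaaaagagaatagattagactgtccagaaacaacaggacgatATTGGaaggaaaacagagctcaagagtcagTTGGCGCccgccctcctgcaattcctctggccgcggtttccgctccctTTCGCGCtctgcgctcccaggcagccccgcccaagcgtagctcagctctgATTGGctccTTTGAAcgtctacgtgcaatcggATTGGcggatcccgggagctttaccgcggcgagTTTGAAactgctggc
Mki67 (chr7:135716380-135716629, strand minus): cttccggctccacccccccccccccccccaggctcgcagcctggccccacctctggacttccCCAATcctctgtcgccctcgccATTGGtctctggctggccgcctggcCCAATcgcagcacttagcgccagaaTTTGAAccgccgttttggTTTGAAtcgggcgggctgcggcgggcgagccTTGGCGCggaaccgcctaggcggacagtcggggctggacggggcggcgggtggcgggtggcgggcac
Top2a (chr11:99024190-99024439, strand minus): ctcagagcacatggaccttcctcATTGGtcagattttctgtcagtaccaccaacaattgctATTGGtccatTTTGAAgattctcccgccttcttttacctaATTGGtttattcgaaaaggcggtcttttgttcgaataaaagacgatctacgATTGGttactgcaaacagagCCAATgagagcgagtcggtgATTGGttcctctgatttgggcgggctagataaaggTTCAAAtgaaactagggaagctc
Cenpa (chr5:30666636-30666885, strand plus): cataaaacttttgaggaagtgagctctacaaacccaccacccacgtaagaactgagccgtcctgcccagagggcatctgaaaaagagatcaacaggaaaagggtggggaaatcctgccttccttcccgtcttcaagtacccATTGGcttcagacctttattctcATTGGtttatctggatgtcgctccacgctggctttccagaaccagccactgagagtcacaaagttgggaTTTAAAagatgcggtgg
In Mcm6 the E2F words formed a pair of overlapping clusters, from -109 to -100 and from -46 to -37 relative to the start, and in Mcm5 a cluster ran from -152 to -143. Pcna held a single CCAAT word and none of the 4 E2F words in the stretch shown. In Cdk1 a CHR word lay from -71 to -66 and another from -15 to -10, and in Ccnb1 a CHR word lay from -42 to -37, downstream of CCAAT words ending at -95 and -63. Top2a held 6 CCAAT words. Cenpa had CCAAT words ending at -105 and -82 and a CHR word from -17 to -12.

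**Figure D1:**
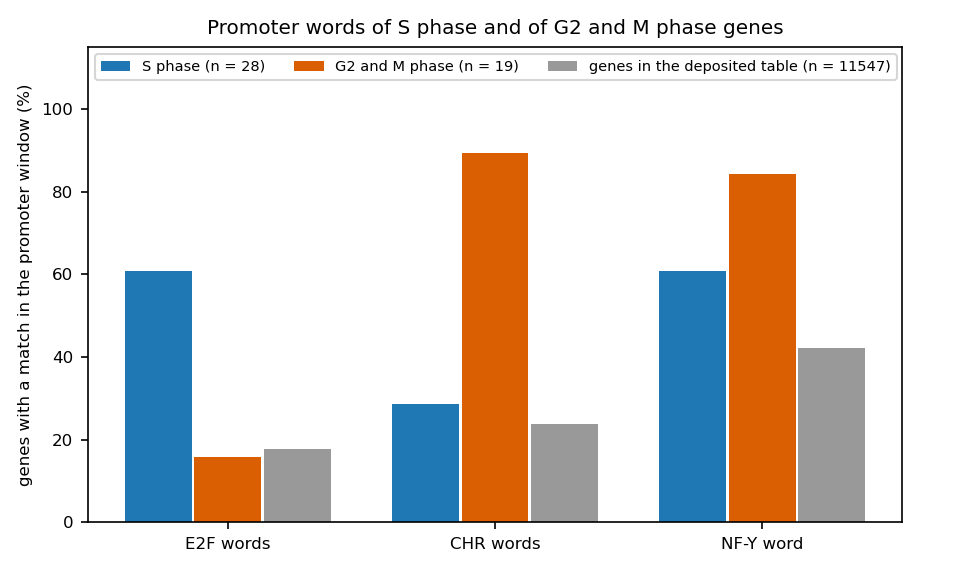
Share of genes (y axis, percent) with at least 1 match in the promoter window for the E2F words, the CHR words and the NF-Y word (the CCAAT box), for 28 S phase genes, 19 G2 and M phase genes and the 11547 genes of the deposited table with an entry. E2F words stand out in S phase genes (60.7%) and CHR words in G2 and M phase genes (89.5%).

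Together the 56 members held 0.310% of the summed mean normalized counts, 5625 counts in S phase genes and 5736 in G2 and M phase genes. Their median mean count was 130, against 65.1 over all genes. Per kilobase of the longest coding transcript in GENCODE M21, the highest levels were those of Mki67, the chromosome-surface protein used as a proliferation marker (220 counts per kb), and Slbp, which binds the stem-loop of histone mRNAs (200 counts per kb). Lig1, the ligase that joins Okazaki fragments (124), and Top2a, the topoisomerase that untangles sister chromosomes (111), followed on the same scale. The subunits of the helicase lay close together, from 65.5 counts per kb for Mcm4 to 108 for Mcm3, a 1.64-fold range. At the low end, Cenpf, a kinetochore protein, had 0.394 counts per kb and Gins1, of the helicase cofactor GINS, 4.38. The table lists 1 transcript identifier per gene, so a low value may belong to that transcript alone; this was not tested.

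Of the authors' DESeq2 results, 1 of the 54 members with an adjusted p was called at an adjusted p under 0.05, and it was higher in knockout; 0 were lower. That is 1.85% of the members, where 0.743% of 12108 genes were called in either direction, 0.264% higher and 0.479% lower. At an unadjusted p under 0.05, 2 of 56 members (3.57%) were past the threshold, both higher, where 5.39% of 14386 genes were past it, 2.70% in each direction. The members past it were Cenpa and Mcm5, and for the other 54 the unadjusted p was above the threshold. The share of members past the unadjusted threshold was thus no larger than that of genes at large.

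The deposited fold changes were shrunken so strongly that most members stood near 0, from -0.11 to 0.20 on the log2 scale apart from Cenpa. Unshrunken values were therefore reconstructed from the deposited value and its error, and are given as a log2 fold change ± SE. For 55 of the 56 members the z of the reconstruction came within 0.1 of that of the deposited p, to which its scale was fitted. Of these, 31 had an SE of at most 1, 17 of S phase and 14 of G2 and M phase, and are called well determined. The SE fell with read count, and Mki67 had the smallest among members, 0.28.

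**Figure D2:**
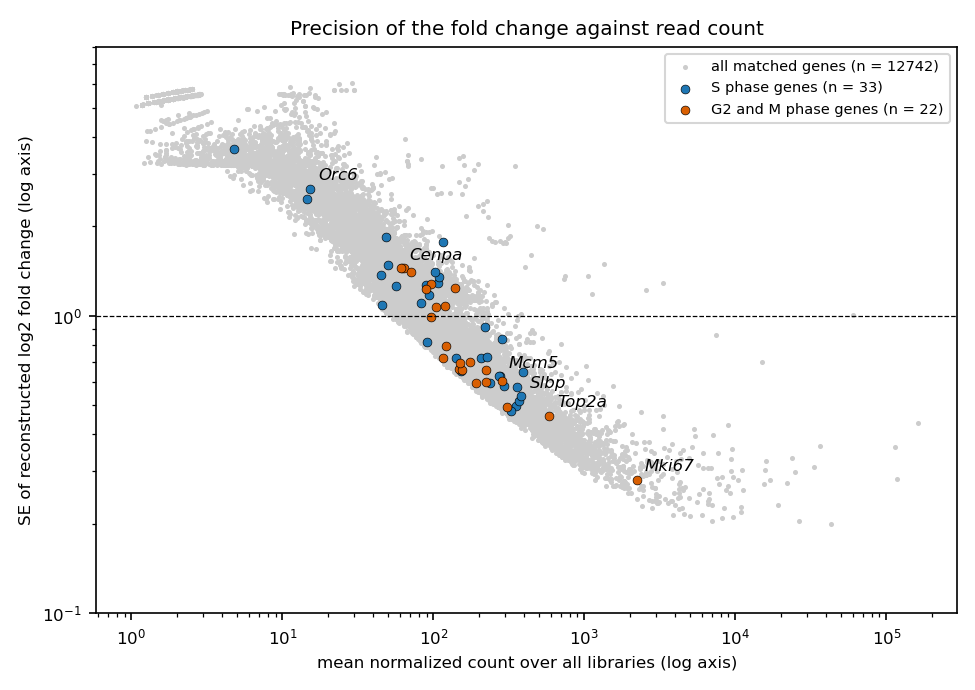
SE of the reconstructed log2 fold change (y axis, log scale) against the mean normalized count over all libraries (x axis, log scale) for 12742 genes (grey), 33 S phase genes (blue) and 22 G2 and M phase genes (orange). The dashed line marks an SE of 1; Mki67, at a mean count of 2218, is the most precise member, and Orc6, at 15.2, is among the least.

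Of the 13 origin licensing and helicase genes with a p, 10 were positive and 3 negative (76.9% positive, against 54.8% of all genes). The 6 subunits of the replicative helicase ring all had positive values. Outside the ring the signs were mixed: Mcm10, Cdc6, Gins1 and Orc6 were positive, and Gins2, Cdt1 and Cdc45 negative. Mcm5 (Entrez gene 17218; chromosome 8) had a mean normalized count of 276 and a reconstructed log2 fold change of 1.37 ± 0.63 (95% interval 0.14 to 2.60); the authors' deposited table gives it an unadjusted p of 0.0310 and, after adjustment (DESeq2), p = 0.675. Mcm7 was at 1.00 ± 0.72, Mcm6 at 0.64 ± 0.52, Mcm2 at 0.55 ± 0.50, Mcm4 at 0.44 ± 0.59 and Mcm3 at 0.19 ± 0.48. Their median was 0.59, against -0.04 over the 5726 well determined genes. The 95% intervals of these 6 lay above a log2 fold change of -1, so a 2-fold fall of any of them was outside its interval, while each interval reached beyond 1 at the upper end. The other origin licensing and helicase genes were less precise or near 0. Gins2, a GINS subunit, was at -0.18 ± 0.73. Mcm10, which joins helicase firing to polymerase alpha, was at 2.22 ± 1.29 (unadjusted p = 0.0999 in the authors' deposited table). Cdt1 and Cdc6, which load the helicase, were at -0.57 ± 1.35 and 0.08 ± 1.48, and Cdc45, the helicase activator, at -0.27 ± 1.37. Orc6, of the origin recognition complex, and Gins1 had few reads, with mean counts of 15.2 and 4.76, and values of 0.81 ± 2.68 and 1.60 ± 3.64.

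The machinery of the fork did not share one sign. Pcna, the sliding clamp, had a mean count of 141 and stood at 1.03 ± 0.72 (unadjusted p = 0.156 in the authors' deposited table), and Pold1, the catalytic subunit of polymerase delta, at 0.41 ± 0.58. Pole, of the leading-strand polymerase epsilon, was at -0.53 ± 0.83, Pola1, of the priming polymerase alpha, at -0.49 ± 0.92, and Lig1, with the highest mean count of the S phase genes (393), at -0.41 ± 0.65 (unadjusted p = 0.521 in the same deposited table). The clamp loader genes Rfc3 and Rfc4 were at 0.21 ± 1.40 and -1.17 ± 1.26, and Fen1, the flap nuclease, and Prim1, the primase, at 1.15 ± 1.45 and 1.36 ± 2.48. Among genes of nucleotide supply, Rrm1, the large subunit of ribonucleotide reductase, had the lowest well determined value of the list, -0.80 ± 0.58 (95% interval -1.93 to 0.33; unadjusted p = 0.163 in the authors' deposited table). Rrm2, its small subunit, was at 0.44 ± 1.26, and Tk1, thymidine kinase, at 0.12 ± 0.82. Tyms, thymidylate synthase, was at 3.00 ± 1.77, an interval from -0.46 to 6.47. Ung, grouped with these genes although it removes uracil from DNA rather than supplying nucleotides, was at -0.37 ± 1.08. None of these passed the authors' test, adjusted or not.

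The 2 genes of chromatin copying and the 4 of G1/S control all had positive values, none of them with a deposited p below 0.05 before adjustment. Slbp, at a mean count of 382, stood at 0.80 ± 0.54 (unadjusted p = 0.137 in the authors' deposited table) and Uhrf1, which recruits the maintenance DNA methyltransferase to hemimethylated sites, at 0.41 ± 0.63. Ccne1 and Ccne2, the E-type cyclins that start S phase, were at 1.08 ± 1.17 and 0.38 ± 1.11. Ccna2, the cyclin of S and G2 phase, was at 0.08 ± 0.65, and E2f1, the activating E2F factor, at 0.83 ± 1.84. At these errors an estimated change of 2-fold would not have been past that threshold for any of these genes.

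G2 and M phase genes had values of both signs. Mki67 (chromosome 7) had a mean count of 2218 and, in the authors' deposited table, an unadjusted p of 0.337. It was reconstructed at 0.27 ± 0.28, the 95% interval running between -0.28 and 0.82, that is a knockout to control ratio between 0.824 and 1.77. Top2a, at a mean count of 578, stood at 0.21 ± 0.46 (unadjusted p = 0.653 in the authors' deposited table) and Kif11, the motor that pushes spindle poles apart, at -0.01 ± 0.50 (95% interval -0.98 to 0.96). For Mki67 and Kif11 a 2-fold change in either direction lay outside the interval; they were the only members of the 31 for which this held. Among kinases and cyclins, Plk1, polo-like kinase, was at -0.57 ± 0.72 and Ccnb2 at 0.22 ± 0.99. Birc5, survivin, grouped with these genes although it is neither a kinase nor a cyclin, was at -0.04 ± 0.70. Ccnb1 and Cdk1, the cyclin and the kinase that trigger mitosis, were at -0.53 ± 1.07 and 0.54 ± 1.28, and the Aurora kinase genes Aurka and Aurkb at -0.59 ± 1.44 and 0.41 ± 1.23. Cdc20, the activator of the anaphase-promoting complex, and Bub1b, a checkpoint kinase, were at 0.57 ± 0.66 and 0.46 ± 0.66, and Bub1, a second checkpoint kinase, at -0.41 ± 1.40.

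Spindle and cytokinesis genes pointed both ways, with Tpx2, a spindle assembly factor, at 0.52 ± 0.61 and Prc1, which bundles the central spindle, at -0.59 ± 0.60. Kif23, a motor of the central spindle, was at 0.20 ± 0.66. Kif20a, another such motor, and Anln, anillin of the contractile ring, were at 0.21 ± 1.07 and 0.13 ± 1.24. Of the factors that drive mitotic transcription, Mybl2 had the highest well determined value in G2 and M phase, 1.07 ± 0.79 (95% interval -0.48 to 2.62; unadjusted p = 0.181 in the authors' deposited table), and Foxm1 was at -0.20 ± 0.70. A total of 24 of the 31 well determined members had a 95% interval inside a 4-fold change either way.

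**Figure D3:**
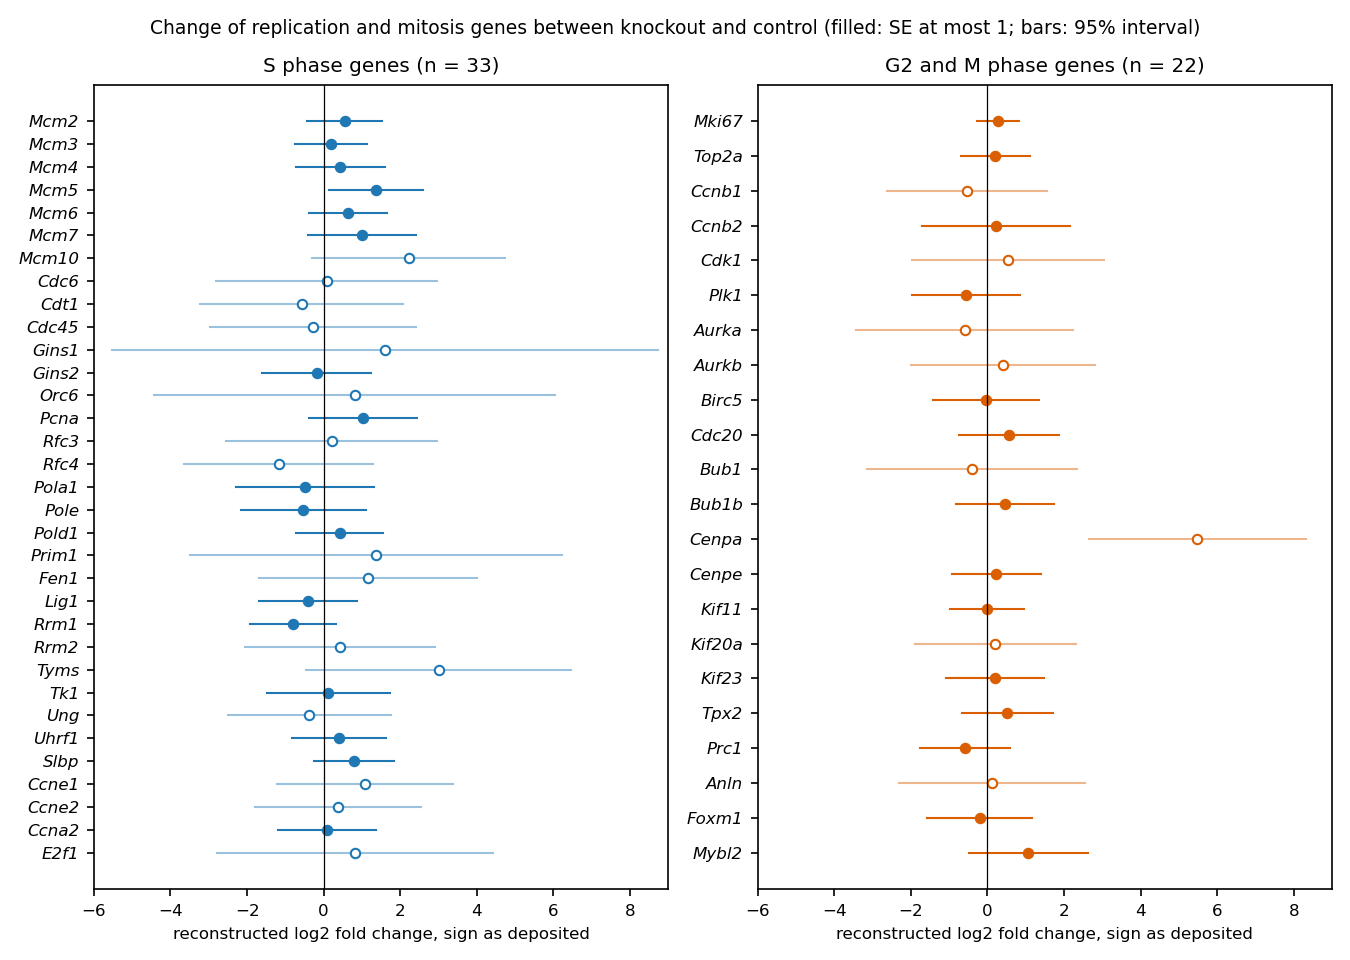
The x axis gives the reconstructed log2 fold change, signed as in the table, of 33 S phase genes (left) and 22 G2 and M phase genes (right), with 95% intervals; filled points have an SE of at most 1. All intervals cross 0 except those of Mcm5 (0.14 to 2.60) and Cenpa (2.65 to 8.32).

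Cenpa, the histone H3 variant that marks centromeres (Entrez gene 12615; chromosome 5, 30666877 to 30674837, GRCm38), was the called member. Its mean normalized count was 61.0. The deposited log2 fold change, in the authors' deposited table, was 4.57 with an error of 1.62 (adjusted p = 0.0248), 23.8-fold higher in knockout. Without shrinkage the reconstruction gave 5.49 ± 1.45 (95% interval 2.65 to 8.32), so the size is known only as a ratio between 6.27 and 321. The rest of the kinetochore did not pass the authors' test: of the 12 other Cenp genes in the lists used here, all with a p, 0 had an unadjusted p under 0.05, 9 were positive and 3 negative, and the smallest unadjusted p was 0.143. Cenpe, the kinetochore motor, the single well determined one, was at 0.23 ± 0.59. Cenpf, at a mean count of 4.38, has no reconstructed size, and its unadjusted p of 0.143 in the authors' deposited table is the smallest just given. Cenpa shared its wide error with other called genes. Of the 32 genes called higher in the table, 19 had a deposited error above 1, with mean counts from 27.4 to 173 and deposited log2 fold changes from 4.41 to 9.53, whereas 0 of the 58 genes called lower had such an error. GENCODE M21 holds 10 transcripts for Cenpa, and a single transcript identifier is listed for it in the deposited data. Whether the value belongs to the gene or to that transcript, and whether single libraries carry it, was not tested.

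The 17 well determined S phase genes had a median reconstructed log2 fold change of 0.41 (quartiles -0.18 and 0.64; 12 positive), and the 14 G2 and M phase genes one of 0.21 (quartiles -0.03 and 0.41; 9 positive). The difference was 0.19. Mcm2 to Mcm7 were also left out, a choice made after their positive values were seen. The S phase median was then 0.078 over 11 genes and the difference -0.13. Leaving out genes picked as high lowers a median by construction, so this does not show what the difference rested on. Over all well determined genes the median was -0.04, with 47.2% positive, against 21 of 31 members positive. By deposited sign alone, 38 of 56 members were positive (67.9%), against 54.8% of genes with a p. Cell cycle genes share regulators and cells, so their signs are not independent, and no test was made of these medians.

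Other genes of the same processes gave mixed values. For comparison, over all genes 0.743% of 12108 were called and 5.39% of 14386 had an unadjusted p under 0.05 (DESeq2). Positive values made up 54.8% of all genes with a p and 47.2% of all well determined genes. Of 45 further replication genes, 40 were in the table, 0 of 37 with an adjusted p were called, and 1 of 38 had an unadjusted p under 0.05, the polymerase epsilon subunit gene Pole4, at a mean count of 24.9 (unadjusted p = 0.00801 in the authors' deposited table). By deposited sign 23 of the 38 were positive (60.5%), whereas the 16 well determined ones had a median of -0.37, with 7 positive. Rpa1, of the single-strand binding protein RPA, was at -1.70 ± 0.92. Among the further origin and helicase genes, Orc2, Orc3, Orc4, Gins4, Mcm9, Dbf4, Gmnn and Ticrr were negative. Orc5, Gins3, Mcmbp, Cdc7 and Recql4 were positive. All of these but Orc2, Mcm9, Dbf4 and Cdc7 had an SE above 1. Of 69 further mitosis genes, 65 were in the table, 0 of 64 were called, and 2 of 65 had an unadjusted p under 0.05, Pttg1 (securin; unadjusted p = 0.0325) and Kif22 (a chromosome-arm motor; unadjusted p = 0.0397 in the authors' deposited table), both positive. The 29 well determined ones had a median of 0.29, with 22 positive. Of 33 G1 regulators and CDK inhibitors, 29 were in the table and 0 of 25 were called. Of 28 with a p, 1 was positive and 1 negative at an unadjusted p under 0.05 (DESeq2). The 12 well determined ones had a median of -0.22. Cdkn2c, a CDK inhibitor of the INK4 family, had a mean count of 49.4, and the authors' deposited table gives it p = 0.00557 before and p = 0.310 after adjustment, and Tfdp1, the DNA-binding partner of E2F, was at -1.17 ± 0.55.

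Clustered histone genes, which cells transcribe in S phase, had mostly positive values. Of 58 with a p, 46 were positive (79.3%, against 54.8% of all genes). At an unadjusted p under 0.05 (DESeq2), 12 were higher and 0 lower, where 2.70% of all genes were past it in each direction. The median over 33 well determined genes was 0.44. Hist1h2ai was the single called one, with a shrunken log2 fold change of 1.41 and an error of 0.30 listed for it in the authors' deposited table (adjusted p = 8.22e-05). These histone genes resemble each other closely, so reads may be shared among copies and single values are uncertain. Hist1h4m and Hist1h4n had identical values, so the genes counted are not all separate measurements.

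Cell type markers had values of both signs in the same comparison. The 19 mesenchyme and fibroblast genes were all positive, with a median of 0.43 and 0 called, and the 11 well determined pan-epithelial genes had a median of -0.63, with 10 negative and Krt18, a keratin, called lower. Of 24 acinar digestive enzyme genes with an adjusted p, 16 were called lower and 0 higher in the authors' deposited table. Over 12108 genes, 0.479% were called lower and 0.264% higher. At an unadjusted p under 0.05 (DESeq2), 20 of 25 acinar genes were lower and 2 higher. The 22 well determined ones had a median of -1.92. Of 12 pan-endocrine genes with a p, 0 were positive and 2 were called lower. By deposited sign, liver genes were positive in 13 of 13 and erythroid genes in 11 of 14 with Gata1 called. Macrophage and leukocyte genes were positive in 11 of 13, endothelial genes in 10 of 14 and nerve genes in 7 of 13. These counts cover all genes with a p, of which 54.8% were positive over all genes. Well determined were only 3 liver, 5 erythroid, 6 macrophage and leukocyte, 7 endothelial and 2 nerve genes. Set against pan-epithelial genes, the S phase and G2 and M phase medians were 1.04 and 0.84; set against mesenchyme genes they were -0.019 and -0.21. Both settings were chosen after seeing the data and only subtract the median of a marker list, so the shifts follow by arithmetic. The S phase value of -0.019 is near 0. The part of these cell types in the medians was not tested. Levels of these markers in each group were not analysed here, since each value is a mean over all libraries.

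**Figure D4:**
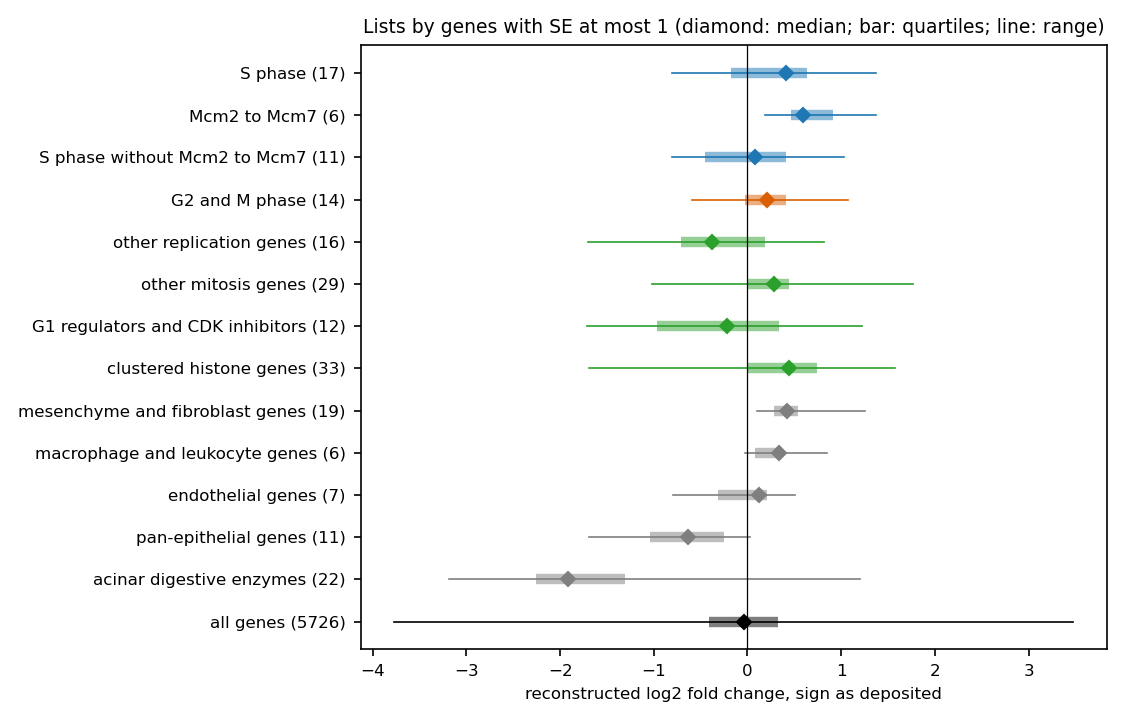
The x axis gives reconstructed log2 fold changes, signed as in the table, for the well determined genes of each list, whose number stands in brackets; diamonds are medians, bars quartiles and lines the range. S phase (0.41) and G2 and M phase (0.21) medians lie between those of mesenchyme (0.43) and pan-epithelial genes (-0.63). The S phase median is 0.078 without Mcm2 to Mcm7, which were left out after their values were seen.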

How the data were processed

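RNA sequencing of dorsal pancreas (3 knockout and 3 control samples, grouped by their titles) was used. Per the labels' protocols, ribosomal RNA was removed from total RNA and a SMARTer kit for stranded libraries was used. Trimmomatic, Salmon and DESeq2, and the build GRCm38 (mm10), are named per the submitters' processing notes. Their versions, the annotation and the model are not given in the sources used. The authors deposited 1 table per gene: the mean normalized count over all libraries (a signal), a shrunken log2 fold change with its error (log2, as deposited), and a p-value and adjusted p-value, also deposited by the authors. No gene was tested again. A p was listed for 14386 of the 14681 genes, and its adjusted form for 12108.

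Unshrunken values were reconstructed assuming a Cauchy prior of common scale and a quadratic likelihood. A scale of 0.3103 fitted the deposited p-values best: the z differed by at most 0.1 for 88.6% of genes with a p (12742). Values are reconstructed only for these genes; well determined ones also have an SE of at most 1 (5726 genes). On simulated data the arithmetic was checked under the same assumptions. Lists are described by counts and medians. Members, lists, motif words and phases were chosen with earlier results of these data known. Members past an unadjusted p of 0.05, those with the highest counts or largest well determined values in each phase, and the usual proliferation markers are named with full values, and other members where their role is described. Of 57 members, 15 overlap another coding gene in GENCODE M21, 2 of them (Cdt1 and Foxm1) on the same strand; whether the counting used strand is not given. Promoter windows come from RefSeq (GRCm38.p6). Mean counts limit precision, and library depths are unknown. Python 3.11.15, scipy 1.17.1 and pandas 2.3.3 were used. Alternatives covered thresholds, count filters, the prior scale, centring and list composition.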

Additional observations from a re-analysis of the deposited data

How the results depend on the processing

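The call of Cenpa was the single call at an adjusted p under 0.1 and when p-values were adjusted over all genes with a p. Members past the unadjusted threshold numbered 2 with a mean count of at least 50 (a filter that can only remove members), 3 at a threshold of 0.1 and 1 at 0.01, all higher, where 5.44%, 9.43% and 2.02% of genes were past it.

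The medians were 0.41 (S phase) and 0.21 (G2 and M phase), with a difference of 0.19. Means weighted by inverse variance were 0.33 and 0.18, with a difference of 0.15. Medians over all matched members were 0.41 and 0.21, with a difference of 0.20. With Ccna2 among G2 and M phase genes they were 0.41 and 0.21, with a difference of 0.20. Reconstruction from the p-value gave 0.40 and 0.21, with a difference of 0.19. The prior scale was fitted to these p-values, and well determined members were picked for matching them, so this likeness was fixed in advance. Members are not independent, so a standard error over them gives no scale for judging these shifts. A minimum mean count of 50 removed no well determined member, so its values are identical by construction. Centring on all genes gave medians of 0.45 and 0.26; any centring leaves the difference as it is. With a prior scale 0.8 times the best one the medians and their difference were 1.74, 0.45 and 1.29, over only 2 and 1 members. With a prior wider by a similar factor the medians were 0.032 and 0.024, over 33 and 22 members. Both scale settings kept members by an SE of at most 1 alone, without the match in z. At these scales the z came within 0.1 of that of the deposited p for 1.06% and 14.6% of genes. The deposited shrunken values gave 0.046 and 0.024. Chosen after seeing the data, centring on pan-epithelial genes gave 1.04 and 0.84, centring on mesenchyme genes -0.019 and -0.21, and leaving out Mcm2 to Mcm7 an S phase median of 0.078 and a difference of -0.13; the cause was not tested. No paired analysis was possible because the table holds no values per library, and leaving out a replicate could not be done for the same reason. Read counts limit the rest: 24 of 55 members with a matched value had an SE above 1.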

Other observations

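Promoter words and fold changes were set side by side for the 25 well determined members with a promoter entry, as a description. The 10 members with an E2F word had a median reconstructed log2 fold change of 0.34, with 7 positive, and the 15 without one a median of 0.22, with 11 positive. The 15 members with a CHR word had a median of 0.22 and the 10 without one a median of 0.53. Values ran from -0.80 to 1.37 with an E2F word and from -0.59 to 1.07 without one. No test was made of these medians.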
